A study of Mus musculus with 6 samples.

Results

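Collagens are the proteins that give the heart wall its tensile strength and its basement membranes. Here the collagen genes were described in hearts of 3 SRAKO mice and 3 wild-type (WT) mice. Members were taken by name alone, as every gene symbol made of Col, a chain number, the letter a and a second number. The table of gene expression held 43 such symbols among 26493, each in 1 row. No expression value entered that rule, but earlier results of these data were known when the members were chosen. Col10a1 and Col21a1 were not analysed here.

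RNA was sequenced from hearts named SRAKO2365, SRAKO2371 and SRAKO2372 and from hearts named WT2368, WT2378 and WT2379. Mice of both genotypes had received isoproterenol, which drives beta-adrenergic receptors and leads to cardiac hypertrophy, over 4 weeks. Untreated hearts were not analysed here, so every value describes a stimulated heart. The labels state neither the allele behind the name SRAKO nor the strain, dose, sex or age of the mice, and nothing in them says that the hearts came from separate litters. P-values therefore measure the spread between these 6 hearts. Values of single hearts follow the order in which the hearts are named above.

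Collagen chains assemble in groups of 3 into a helix, and the chain types fall into structural classes. Fibrillar collagens (I, III, V and others) form the tension-bearing fibres that fibroblasts deposit around cardiomyocytes, and they are the main substance of cardiac fibrosis. Collagen IV forms the network of basement membranes around cardiomyocytes and capillaries. Collagen VI makes beaded filaments beside the basement membrane, collagens XV and XVIII (the multiplexins) sit in the basement membrane zone, and FACIT collagens decorate fibrils. Collagen VIII makes short-chain networks, collagen VII makes anchoring fibrils, and a last class crosses the cell membrane.

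Levels are FPKM, read coverage scaled by transcript length and by library size, so they can be compared between genes. The sum over all rows ran from 516817 to 594266 FPKM per heart. The steps between low values, where they could be read, put an FPKM of 1 at 8296 to 13099 aligned bases per kilobase. WT2368 and SRAKO2371 carried more ribosomal RNA: mitochondrial mt-Rnr1 had 879, 1896 and 1122 FPKM in SRAKO hearts, against 4548, 963 and 1061 FPKM in WT hearts. Sra1, the steroid receptor RNA activator gene, had 1.96, 1.78 and 2.05 FPKM in SRAKO hearts and 4.40, 4.23 and 6.31 FPKM in WT hearts. The means were 1.93 ± 0.139 in SRAKO and 4.98 ± 1.15 in WT (SD, n = 3 each), no hearts overlapped, and the exact permutation p (two-sided) was 0.1, the lowest possible for 3 against 3. The summed cardiomyocyte markers, from Myh6 to Ckm, reached 15580 to 18860 FPKM in SRAKO hearts and 16820 to 17680 FPKM in WT hearts, so all 6 carried the markers of the labelled tissue.

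All 43 collagens together summed to 205, 194 and 147 FPKM in SRAKO hearts, against 183, 211 and 242 FPKM in WT hearts. The group means were 182 ± 30.9 in SRAKO and 212 ± 29.7 in WT (SD, n = 3 each), and the ranges overlapped: SRAKO2365 and SRAKO2371 lay above WT2368, and SRAKO2372 was the lowest heart. Basement membrane collagen IV made up 41.4% of all collagen FPKM over the 6 hearts, fibrillar collagens 28.5%, beaded filament collagens 18.7%, multiplexins 6.21%, FACIT collagens 3.10% and short-chain collagens 1.59%. By chain family, collagen VI held 18.6%, collagen I 13.8%, collagen III 8.24%, collagen V 6.01% and collagen XV 4.76%. The RNA came from heart tissue, where fewer cells of a type and less RNA per cell cannot be told apart.

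Of the 43 genes, 17 had 1 FPKM or more in 3 or more hearts and entered the test. limma on log2(FPKM + 1), with Benjamini-Hochberg adjustment over all 10201 rows tested, called 0 of the 17, where 0.0196% of all tested rows were called. At an unadjusted p under 0.05 there were also 0 of 17, where 3.46% of all tested rows passed. The log2 difference, SRAKO minus WT, was below 0 in 16 of 17 collagens, against 46.5% of all tested rows. Its median over the 17 was -0.19, against 0.01 over all tested rows. Hearts SRAKO2372 and WT2379 set much of that median: it was -0.05 without SRAKO2372 and -0.11 without WT2379. All 17 had the same adjusted p of 0.9995.

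**Figure D1:**
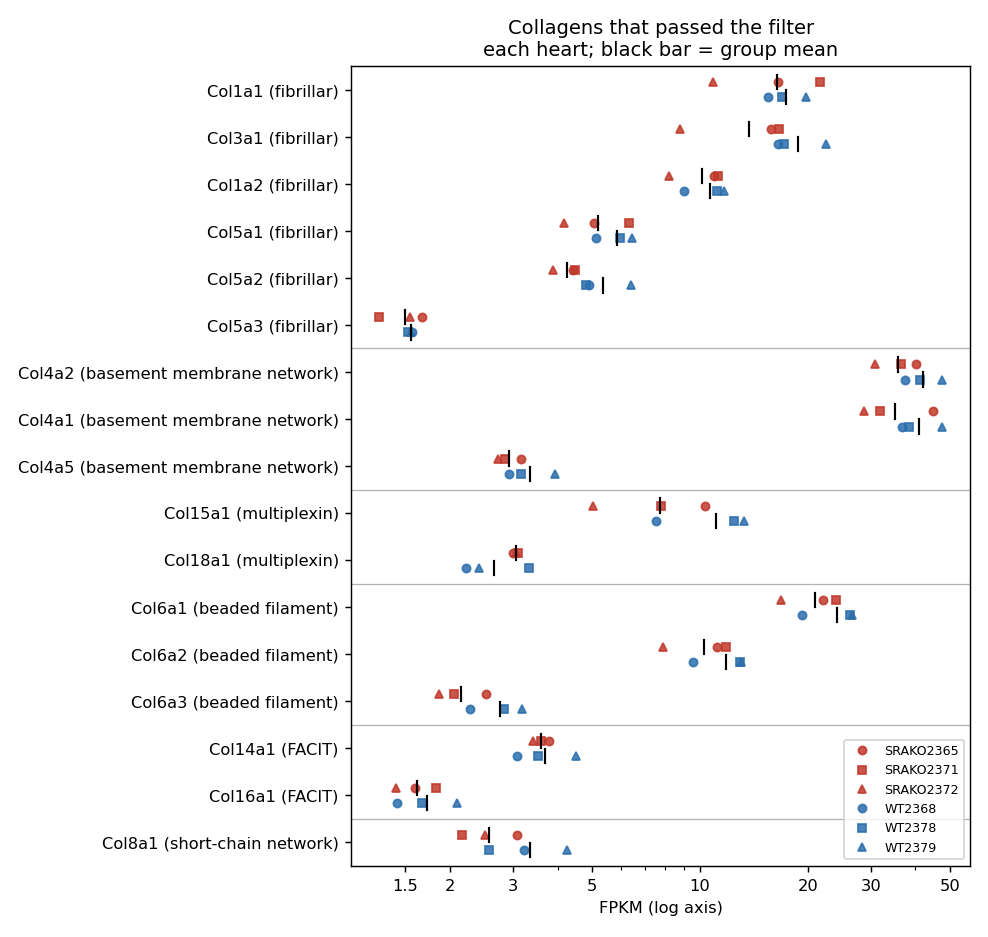
FPKM of the 17 collagens that passed the filter on low values, on a log axis, grouped by structural class. Red symbols are the SRAKO hearts and blue symbols the WT hearts, with a black bar at each group mean. SRAKO2372 (red triangle) lies leftmost in 13 of the 17 genes and WT2379 (blue triangle) rightmost in 14.

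Among the fibrillar collagens, 6 of 11 entered the test, and all of the 6 had a mean below WT without passing it. Col1a1 encodes the alpha1 chain of collagen I, the main collagen of scar and of the cardiac interstitium. It had 16.6, 21.7 and 10.9 FPKM in SRAKO hearts, against 15.5, 16.9 and 19.8 FPKM in WT hearts. The SRAKO hearts held both its highest and its lowest value, so the groups overlapped over the whole WT range. The log2 difference was -0.13 (SE 0.22; 95% interval -0.65 to 0.39; limma, unadjusted p = 0.589). Col1a2, the alpha2 chain of the same trimer, had 10.9, 11.2 and 8.17 FPKM in SRAKO hearts and 9.03, 11.2 and 11.7 FPKM in WT hearts. Its groups overlapped as well, with a log2 difference of -0.07 and an SE of 0.15. Both differences rest on SRAKO2372, and without it they were 0.12 for Col1a1 and 0.06 for Col1a2.

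Col3a1 encodes collagen III, the thinner and more distensible fibril collagen of the heart. It had 15.8, 16.6 and 8.77 FPKM in SRAKO hearts, against 16.5, 17.2 and 22.6 FPKM in WT hearts. SRAKO2372 stood well below the other 5 hearts and WT2379 above them, and SRAKO2371 lay just above WT2368. The SRAKO mean was 73.2% of WT, a log2 difference of -0.46 (SE 0.24; 95% interval -1.004 to 0.09; limma, unadjusted p = 0.0890). Without SRAKO2372 the difference was -0.19. Its row also carries the symbol AC125167.1, so its reads cannot be assigned to Col3a1 alone.

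Collagen V starts new fibrils and limits their width. Col5a1 had 5.06, 6.33 and 4.18 FPKM in SRAKO hearts and 5.12, 5.98 and 6.46 FPKM in WT hearts, with a log2 difference of -0.16 (SE 0.14), which was -0.04 without SRAKO2372. Col5a2, its partner chain, had 4.42, 4.47 and 3.87 FPKM in SRAKO hearts, against 4.88, 4.81 and 6.42 FPKM in WT hearts. It was the only tested collagen whose genotypes did not overlap, where 8.05% of all tested rows did not. The gap between the highest SRAKO heart and the lowest WT heart was narrow beside the distance from WT2379 to the other WT hearts. The SRAKO mean was 79.2% of WT, with a log2 difference of -0.27, an SE of 0.12 and an interval of -0.55 to 0.01 (limma, unadjusted p = 0.0576), and without WT2379 the difference was -0.16. Col5a3, the least abundant tested member, ran from 1.27 to 1.67 FPKM over all 6 hearts.

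Col3a1 and Col5a2 are neighbours in the mouse genome. On chromosome 1 of GRCm38, Col3a1 occupies bases 45311538 to 45349706 (plus strand) and Col5a2 bases 45374321 to 45503282 (minus strand). Their 3′ ends face each other across 24614 bases.

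**Figure D2:**
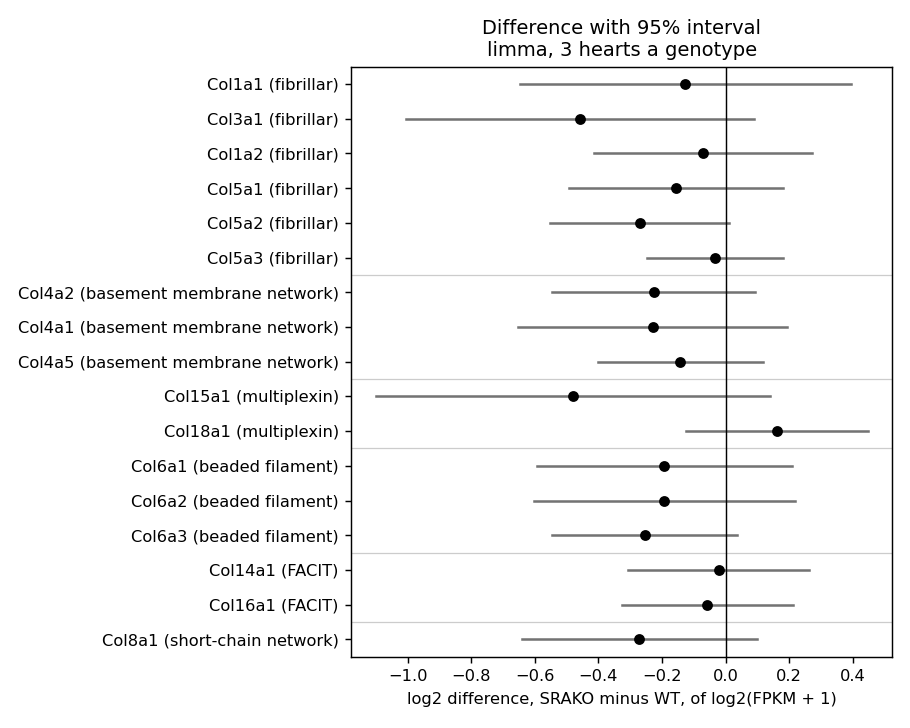
Log2 difference of each tested collagen, SRAKO minus WT, computed on log2(FPKM + 1), as a point with its 95% interval from limma. Of the 17 points 16 lie below 0, from -0.48 for Col15a1 to -0.02 for Col14a1, Col18a1 lies above it at 0.16, and every interval spans 0.

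Col3a1, Col1a2, Col5a1 and Col15a1 were all lowest in SRAKO2372 and highest in WT2379, and the bases before their start sites are shown as 4 examples of genes with that order of hearts. The sequences are from RefSeq (GRCm38.p6, plus strand, 5′ to 3′) and lie within the 250 bases before the annotated start. Capitals mark matches, on either strand, to the letters TATAAA of a TATA box. They also mark the letters GGGCGG of a GC box. The CCAAT box was searched as well. For Col1a2 the part that overlaps an annotated exon is left out, with a CCAAT box match 109 bases before the start in it.
Col3a1, chr1:45311288-45311537: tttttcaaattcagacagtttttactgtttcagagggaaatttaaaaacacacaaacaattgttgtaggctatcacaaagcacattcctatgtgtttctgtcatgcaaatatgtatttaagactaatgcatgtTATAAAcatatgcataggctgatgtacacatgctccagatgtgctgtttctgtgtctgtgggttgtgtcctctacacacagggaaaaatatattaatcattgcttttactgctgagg
Col1a2, chr6:4505370-4505492: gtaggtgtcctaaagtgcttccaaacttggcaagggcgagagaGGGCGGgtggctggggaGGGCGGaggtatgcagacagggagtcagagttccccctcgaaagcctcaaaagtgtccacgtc
Col5a1, chr2:27886175-27886424: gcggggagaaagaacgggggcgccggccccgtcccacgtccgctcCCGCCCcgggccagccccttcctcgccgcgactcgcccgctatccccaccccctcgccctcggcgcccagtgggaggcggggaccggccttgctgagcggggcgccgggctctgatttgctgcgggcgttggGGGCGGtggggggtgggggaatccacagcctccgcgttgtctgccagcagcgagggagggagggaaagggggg
Col15a1, chr4:47207762-47208011: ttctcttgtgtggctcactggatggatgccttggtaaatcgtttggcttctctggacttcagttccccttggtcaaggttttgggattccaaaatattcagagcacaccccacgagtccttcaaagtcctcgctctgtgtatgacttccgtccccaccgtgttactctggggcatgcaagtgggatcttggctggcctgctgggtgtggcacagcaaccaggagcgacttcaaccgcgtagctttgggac

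The window of Col3a1 was 35.2% G and C and held a TATA box match 117 bases before the start. That of Col5a1 was 76.4% G and C with 2 GC box matches and no TATA box. The window of Col15a1 was 53.6% G and C and held none of the 3 motifs. Windows were found for 34 of the 43 collagens, 37 windows in all, of which 22 held a GC box, 13 a CCAAT box and 4 a TATA box. Over all 32851 mouse windows of that length, 32.7% held a GC box, 33.9% a CCAAT box and 12.4% a TATA box, counted on both strands. None of the printed matches overlaps another. A match describes the letters only.

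The basement membrane chains Col4a1 and Col4a2 were the most abundant collagens of these hearts. They encode the alpha1 and alpha2 chains of the collagen IV trimer found in nearly every basement membrane. Col4a1 had 44.8, 31.8 and 28.7 FPKM in SRAKO hearts, against 36.7, 38.4 and 47.5 FPKM in WT hearts. Col4a2 had 40.04, 36.5 and 30.9 FPKM in SRAKO hearts and 37.3, 41.3 and 47.6 FPKM in WT hearts. In both genes SRAKO2365 lay inside the WT range and the other SRAKO hearts below it. The log2 difference was -0.23 for each, with an SE of 0.18 for Col4a1 and 0.14 for Col4a2 (limma, unadjusted p = 0.245 and 0.140). Without SRAKO2372 the difference was -0.10 for Col4a1 and -0.13 for Col4a2, and without SRAKO2365 it was -0.41 for Col4a1 (unadjusted p = 0.0336). Col4a5, a chain of the specialised collagen IV trimers, ran from 2.73 to 3.16 FPKM in SRAKO hearts and from 2.92 to 3.94 FPKM in WT hearts. The remaining chains Col4a3, Col4a4 and Col4a6 stayed below the filter, between 0.229 and 0.849 FPKM.

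The multiplexins were Col15a1 and Col18a1. Col15a1, which links basement membranes of muscle and capillaries to the fibrils beside them, had 10.3, 7.80 and 5.03 FPKM in SRAKO hearts, against 7.55, 12.4 and 13.2 FPKM in WT hearts. The hearts were widely spread in both genotypes, and WT2368 lay among the SRAKO hearts. The SRAKO mean was 69.8% of WT, a log2 difference of -0.48 (SE 0.27; 95% interval -1.10 to 0.14; limma, unadjusted p = 0.111). It was -0.24 without SRAKO2372 and -0.71 without WT2368 (unadjusted p = 0.0318). Col18a1, whose product is the source of the anti-angiogenic fragment endostatin, ran from 2.99 to 3.10 FPKM in SRAKO hearts and from 2.22 to 3.33 FPKM in WT hearts. Its SRAKO mean was 115% of WT with a log2 difference of 0.16 (SE 0.12), inside the WT range.

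The beaded filament chains of collagen VI followed one another closely. Col6a1 had 22.1, 23.9 and 16.8 FPKM in SRAKO hearts, against 19.3, 26.3 and 26.7 FPKM in WT hearts. Col6a2 had 11.2, 11.8 and 7.86 FPKM in SRAKO hearts and 9.53, 12.9 and 13.03 FPKM in WT hearts. In each genotype the lowest heart of both genes was the same, SRAKO2372 and WT2368. Both differed by -0.19 on the log2 scale (SE 0.17 for Col6a1 and 0.18 for Col6a2), which without SRAKO2372 came to -0.05 and -0.03. Col6a3, the third chain of the trimer, ran from 1.86 to 2.53 FPKM in SRAKO hearts and from 2.27 to 3.17 FPKM in WT hearts, a log2 difference of -0.26 (SE 0.13; limma, unadjusted p = 0.0771). Col6a6 ran from 0.470 to 0.773 FPKM, and Col6a4 and Col6a5 from 0 to 0.0365 FPKM.

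Of the FACIT class, Col14a1 and Col16a1 entered the test. Col14a1, which binds the surface of collagen I fibrils, ran from 3.40 to 3.78 FPKM in SRAKO hearts, inside the WT range of 3.07 to 4.49 FPKM. Col16a1 ran from 1.42 to 1.82 FPKM in SRAKO hearts and from 1.42 to 2.09 FPKM in WT hearts. Col8a1, the short-chain collagen of vessel walls, ran from 2.16 to 3.07 FPKM in SRAKO hearts and from 2.57 to 4.25 FPKM in WT hearts. Its log2 difference was -0.27 (SE 0.16; limma, unadjusted p = 0.129), and -0.13 without WT2379.

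The same hearts were at the extremes of gene after gene. Among the 9 collagens with a mean of at least 5 FPKM, SRAKO2372 was the lowest heart in 9 of 9 and WT2379 the highest in 8 of 9, Col1a1 in SRAKO2371 being the exception. Over the 17 tested collagens SRAKO2372 was lowest in 13, against 9.32% of all tested rows, and WT2379 was highest in 14, against 26.5% of all tested rows. The median deviation of the 17 from the WT mean, on the log2 scale, was -0.06, -0.15 and -0.39 in SRAKO hearts, against -0.16, -0.02 and 0.18 in WT hearts. Over all tested rows the same medians were 0.01, -0.00 and 0.03 in SRAKO hearts and -0.10, 0.05 and 0.05 in WT hearts. The fibrillar, collagen IV, beaded filament and multiplexin classes each had their lowest median in SRAKO2372. The FACIT class was lowest in WT2368. The short-chain class, tested through Col8a1 alone, was lowest in SRAKO2371, at -0.44 against -0.29 in SRAKO2372. Without WT2368 and SRAKO2371, the hearts rich in ribosomal RNA, the median log2 difference of the 17 was -0.32 and 15 were below 0.

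**Figure D3:**
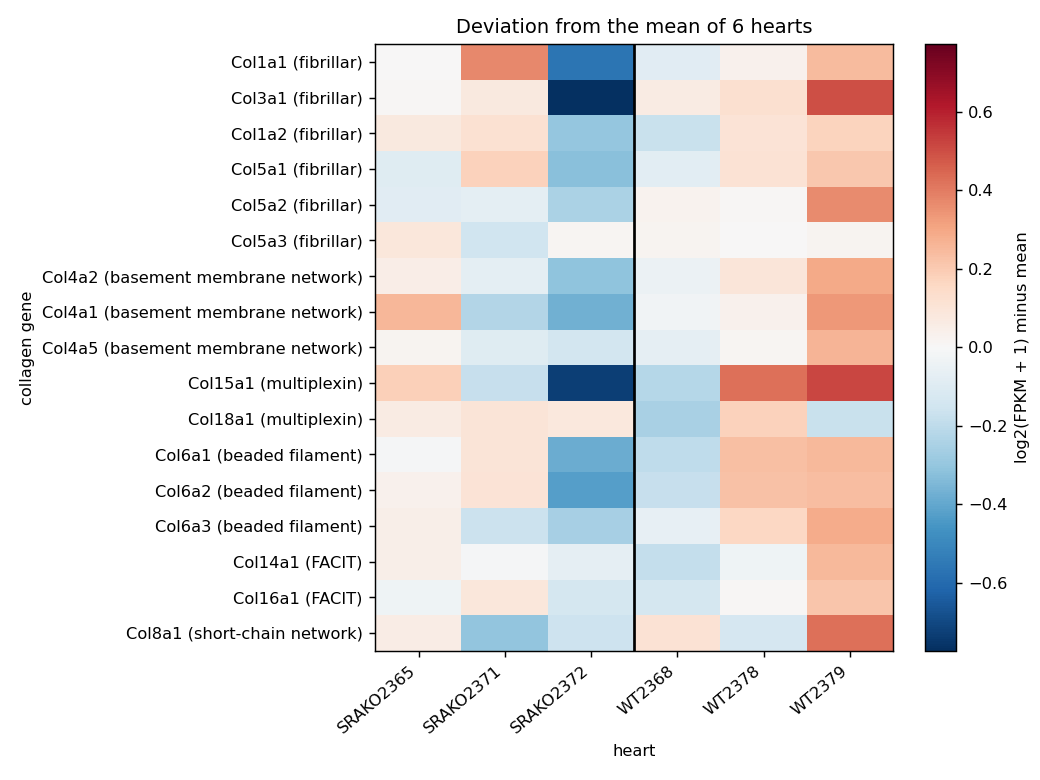
Deviation of each tested collagen in each heart from its mean over the 6 hearts, on the log2(FPKM + 1) scale, with SRAKO hearts left of the black line and WT hearts right of it. The column of SRAKO2372 is blue in most rows and that of WT2379 red, while the other hearts differ from gene to gene.

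Fibroblasts make most fibrillar collagen, so their markers were read in the same hearts. The 14 fibroblast markers, among them Pdgfra, Tcf21 and Dcn, had median deviations from the WT mean of 0.04, 0.14 and -0.00 in SRAKO hearts and -0.14, 0.04 and 0.12 in WT hearts. Of the 14, 4 were lower and 10 higher in SRAKO, 0 were called, and their sum ran from 607 to 635 FPKM in SRAKO hearts and from 443 to 630 FPKM in WT hearts. The low sum was that of WT2368, which was the lowest heart in 8 of the 14 and in 44.9% of all tested rows. Gsn alone gave 319.6, 319.4 and 308.9 FPKM of the SRAKO sums and 191.6, 316.8 and 319.5 FPKM of the WT sums. SRAKO2372 was lowest in 2 of the 14, Lum and Cd248, and WT2379 highest in 5, Lum among them. Dcn, decorin, had 98.6, 94.3 and 109 FPKM in SRAKO hearts, against 82.7, 84.8 and 96.8 FPKM in WT hearts, so SRAKO2372 was its highest heart. Lum, lumican, which like decorin coats fibrils, had 22.59, 22.98 and 22.12 FPKM in SRAKO hearts, against 22.48, 26.02 and 26.11 FPKM in WT hearts, with SRAKO2372 lowest and WT2379 highest. The 10 endothelial markers, of cells that also make collagen IV, had median deviations of 0.03, -0.11 and -0.05 in SRAKO hearts and -0.01, -0.00 and 0.05 in WT hearts. Their sums ran from 358 to 377 FPKM in SRAKO hearts and from 344 to 357 FPKM in WT hearts. Fabp4, also on the adipocyte list, gave 98.1, 132 and 112 FPKM of the SRAKO sums. It gave 108, 82.7 and 86.2 FPKM of the WT sums. Of the 10 markers 7 were lower and 3 higher in SRAKO.

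Ratios of chains within a heart do not depend on how hearts are scaled to each other, and 6 were computed. The closest to fixed was Col6a1 over Col6a2, at 1.98, 2.03 and 2.14 in SRAKO hearts and 2.02, 2.03 and 2.05 in WT hearts. Col4a1 over Col4a2 was 1.12, 0.870 and 0.928 in SRAKO hearts, against 0.982, 0.929 and 0.998 in WT hearts. Col1a1 over Col1a2, whose product holds alpha1 and alpha2 chains in unequal number, was 1.52, 1.93 and 1.33 in SRAKO hearts and 1.72, 1.52 and 1.69 in WT hearts. In each of these 3 the SRAKO hearts spread around the WT hearts on both sides.

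Col1a1 over Col3a1, a ratio of RNA levels and not of deposited collagen, was the only ratio whose genotypes did not overlap. The Col3a1 row in it also carries the symbol AC125167.1. This ratio was 1.05, 1.303 and 1.24 in SRAKO hearts, against 0.942, 0.983 and 0.876 in WT hearts. The means were 1.197 ± 0.133 in SRAKO and 0.934 ± 0.0542 in WT (SD, n = 3 each), a log2 difference of 0.35 (SE 0.11). The exact permutation p (two-sided) was again the lowest possible, 0.1, and 0.6 after Benjamini-Hochberg adjustment over the 6 ratios. With each heart left out in turn the log2 difference stayed between 0.29 and 0.45. Col6a1 over Col6a3 (exact permutation p = 0.3) and Col5a1 over Col5a2 (exact permutation p = 0.5) overlapped between genotypes.

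**Figure D4:**
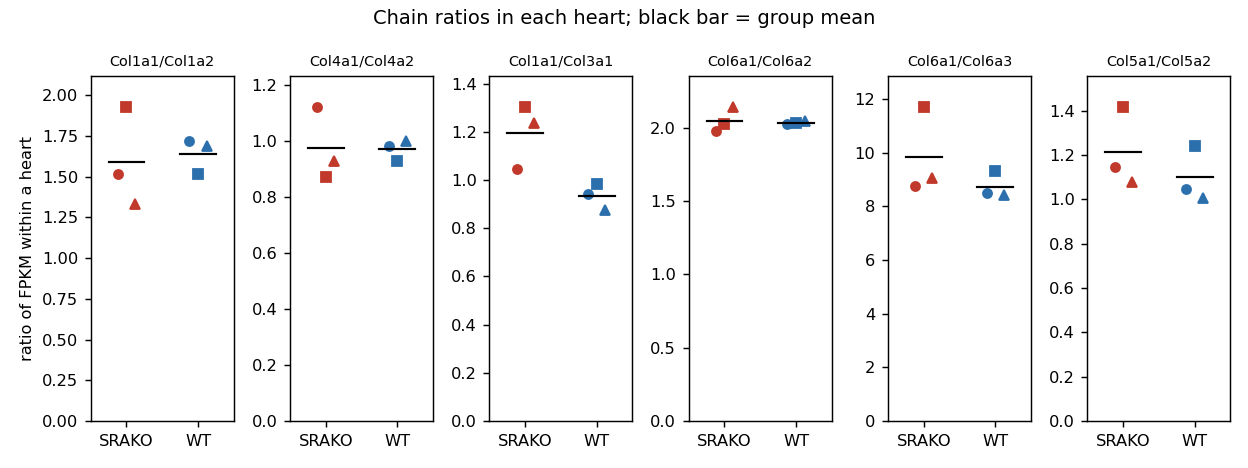
Ratio of the FPKM of 2 collagen chains in each heart, with SRAKO hearts in red left of WT hearts in blue, a black bar at the group mean, and each vertical axis starting at 0. Only for Col1a1/Col3a1 do all SRAKO hearts, from 1.05 to 1.303, lie above all WT hearts, from 0.876 to 0.983.

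The other 26 collagens were below the filter, and the highest of them, Col4a4, had a mean of 0.702 FPKM, against 1.52 FPKM for Col5a3 just inside it. The genotypes did not overlap in 5 of the 26, and with Col5a2 in 6 of all 43, where 7.41% of all rows of the table did not overlap. Col11a2, a minor fibrillar chain best known from cartilage, had 0.402, 0.532 and 0.420 FPKM in SRAKO hearts, against 0.313, 0.367 and 0.202 FPKM in WT hearts. Col22a1, a FACIT collagen of muscle-tendon junctions, had 0.0641, 0.0370 and 0.0729 FPKM in SRAKO hearts and 0.0150, 0.0123 and 0.0158 FPKM in WT hearts. In both genes the lowest SRAKO heart stood above the highest WT heart.

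Col27a1, a fibrillar collagen of cartilage, had 0.349, 0.411 and 0.446 FPKM in SRAKO hearts, against 0.490, 0.532 and 0.472 FPKM in WT hearts. Col9a2, a FACIT chain of cartilage, had 0.0441, 0.0241 and 0.0421 FPKM in SRAKO hearts and 0.106, 0.0452 and 0.0778 FPKM in WT hearts. Col2a1, the main cartilage collagen, was listed at 0 in the SRAKO hearts and had 0.0210, 0.0749 and 0.0242 FPKM in WT hearts. In these 3 the highest SRAKO heart stood below the lowest WT heart. At the scale read from the low values, Col22a1 rests on about 7062, 3539 and 8414 aligned bases in SRAKO hearts, against 1093, 1094 and 1632 in WT hearts, and Col2a1 on at most 3875 in any heart. Among low values of genes with a single transcript, the commonest was 568 to 570 aligned bases in every heart. The WT values of Col22a1 lie near small multiples of that size. Those of Col2a1, at 888, 3875 and 1453 aligned bases, do not. An exact read count was not recovered, so these are levels without a counting error.

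Of the remaining 21, Col4a3, Col4a4, Col4a6 and Col6a6 are given above with their classes. Col20a1, Col23a1, Col28a1, Col12a1, Col13a1 and Col8a2 ran between 0.107 and 0.655 FPKM and overlapped between genotypes. Col7a1, the anchoring fibril collagen, ran from 0.0748 to 0.129 FPKM in SRAKO hearts and from 0.0779 to 0.117 FPKM in WT hearts. Col11a1, Col9a1, Col9a3, Col17a1, Col19a1, Col24a1, Col25a1, Col26a1 and both Col6a4 and Col6a5 stayed below 0.1 FPKM in all 6 hearts.

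**Figure D5:**
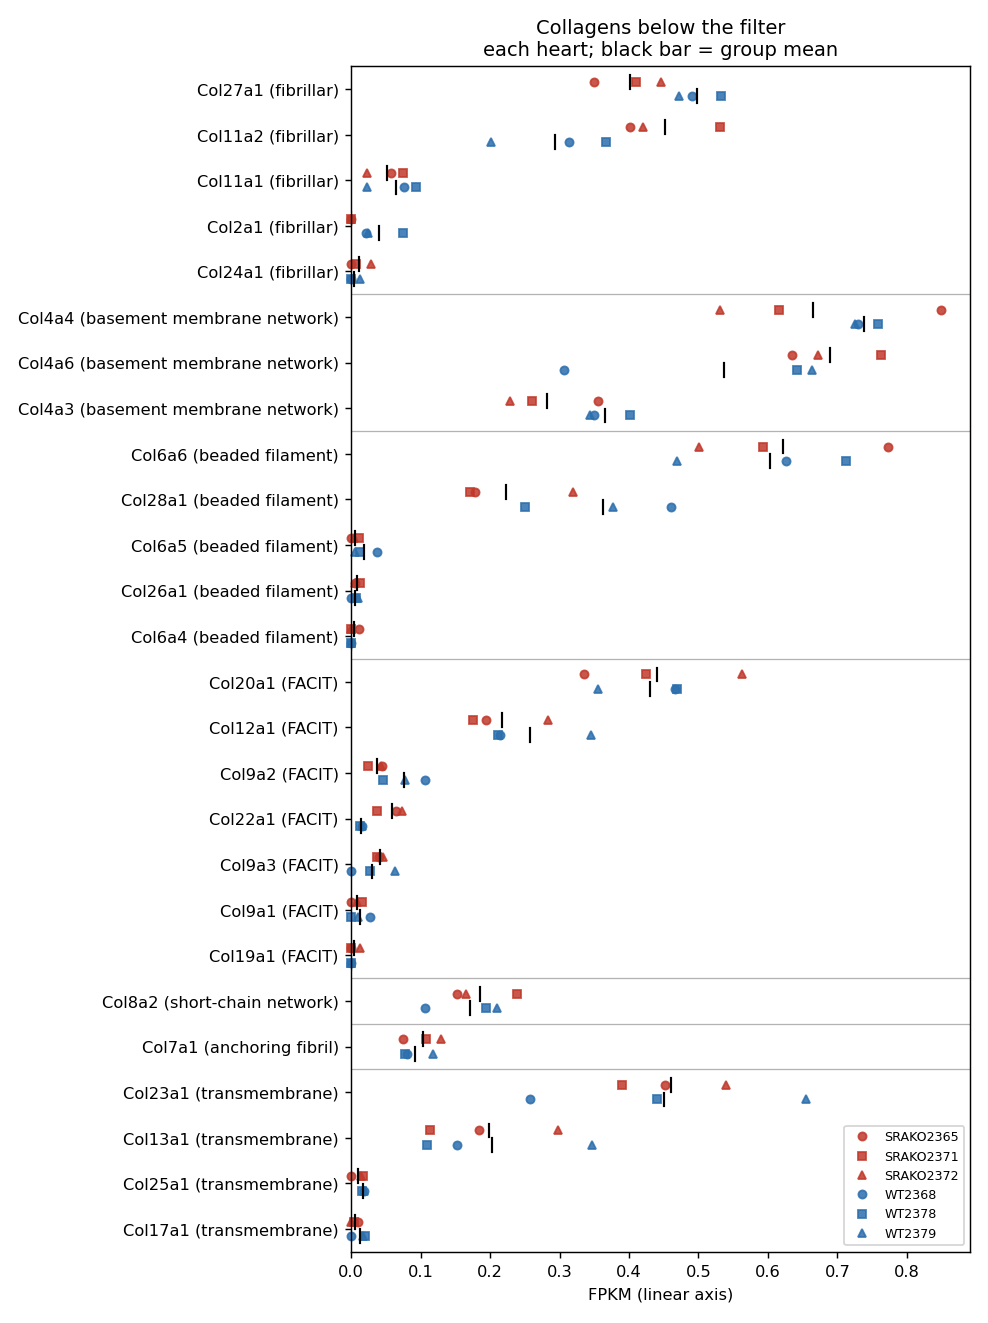
FPKM of the 26 collagens below the filter, on a linear axis from 0, grouped by structural class. Red symbols are the SRAKO hearts, blue symbols the WT hearts and black bars the group means. Col11a2 and Col22a1 have all red symbols right of all blue ones, and Col27a1, Col9a2 and Col2a1 have them left.

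Collagen chains are hydroxylated, folded, trimmed and cross-linked by enzymes and chaperones, and 33 of 40 such genes on a list entered the test. Of the 33, 19 were lower and 14 higher in SRAKO with a median log2 difference of -0.06. limma called 0 of them after adjustment, and 1 had an unadjusted p under 0.05, where 1.56% of all tested rows were lower at that level. That gene was P4ha1, the catalytic subunit of prolyl 4-hydroxylase that lets the helix form. It had 6.94, 7.53 and 6.63 FPKM in SRAKO hearts, against 8.74, 7.56 and 10.7 FPKM in WT hearts (log2 difference -0.30, SE 0.13, unadjusted p = 0.0472). The genotypes did not overlap, by a narrow margin between SRAKO2371 and WT2378. That was 1 of the 33, where 3.76% of all tested rows were separated in that direction. Next by p came Loxl2, a collagen cross-linking oxidase, at 3.22 ± 0.619 FPKM in SRAKO and 4.32 ± 0.909 FPKM in WT (SD, n = 3 each). Adamts2, which cuts the amino-terminal propeptide from procollagen, averaged 3.67 FPKM in SRAKO and 4.40 FPKM in WT, and P3h3 averaged 3.44 FPKM in SRAKO and 3.13 FPKM in WT. Without WT2379 the median of the 33 was 0.06, so its sign rests on that heart.

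Of 16 tested partners of collagen IV in the basement membrane, 11 were lower and 5 higher in SRAKO with a median log2 difference of -0.09, where 46.5% of all tested rows were lower. limma called 0 of them, and 3 were lower at an unadjusted p under 0.05, where 1.56% of all tested rows were. Sparc, a matricellular protein that binds collagen, had 115, 115 and 80.9 FPKM in SRAKO hearts, against 124, 137 and 138 FPKM in WT hearts (log2 difference -0.37, SE 0.16, unadjusted p = 0.0461). SRAKO2372 was again its lowest heart. Nid2, a nidogen that bridges laminin and collagen IV, had 5.50, 5.53 and 5.12 FPKM in SRAKO hearts and 6.11, 6.45 and 6.42 FPKM in WT hearts (log2 difference -0.20, SE 0.08, unadjusted p = 0.0481). Papln, papilin, averaged 1.02 FPKM in SRAKO and 1.47 FPKM in WT, and the laminin chain Lamb1 averaged 6.17 FPKM in SRAKO and 7.24 FPKM in WT. The genotypes did not overlap in 4 of the 16, all lower in SRAKO, where 3.76% of all tested rows were separated in that direction.

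Of 13 tested small leucine-rich and fibril-associated proteins, 4 were lower and 9 higher in SRAKO with a median log2 difference of 0.14, where 46.5% of all tested rows were lower, and 0 were called. Tnxb, tenascin-X, had 13.5, 14.8 and 13.1 FPKM in SRAKO hearts, against 10.4, 11.9 and 12.01 FPKM in WT hearts (limma, log2 difference 0.25, SE 0.10, unadjusted p = 0.0390). It was 1 of the 13 higher at an unadjusted p under 0.05, where 1.90% of all tested rows were. Prelp, a proteoglycan that anchors basement membranes to collagen, averaged 32.0 ± 2.58 FPKM in SRAKO and 25.5 ± 4.74 FPKM in WT (SD, n = 3 each). Tnxb and Prelp did not overlap between genotypes, 2 of 13, where 4.28% of all tested rows were separated in that direction. Fn1, fibronectin, averaged 8.82 FPKM in SRAKO and 10.3 FPKM in WT.

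Of 9 tested genes that degrade collagen or inhibit its degradation, 6 were lower and 3 higher in SRAKO with a median log2 difference of -0.06, and 0 were called. Mmp3, stromelysin-1, had 2.36, 2.54 and 3.66 FPKM in SRAKO hearts, against 3.19, 4.48 and 5.62 FPKM in WT hearts (limma, log2 difference -0.48, SE 0.19, unadjusted p = 0.0354). It was 1 of the 9 lower at an unadjusted p under 0.05, where 1.56% of all tested rows were. Ctsk, the collagen-cleaving cathepsin K, averaged 2.10 FPKM in SRAKO and 2.78 FPKM in WT, and Timp2 averaged 43.2 FPKM in SRAKO and 37.6 FPKM in WT. Mmp14 had 5.68, 6.19 and 6.86 FPKM in SRAKO hearts and 0.656, 4.74 and 7.32 FPKM in WT hearts, WT2368 standing apart. Of 8 tested genes listed as collagen receptors or uptake, 6 were lower and 2 higher (median -0.06, 0 called). The smallest p there belonged to Osbpl9, which encodes an oxysterol-binding-like protein and is not known as a collagen receptor. It averaged 8.23 FPKM in SRAKO and 9.50 FPKM in WT. The integrin chains Itga1 (1.91 FPKM in SRAKO, 2.23 FPKM in WT) and Itga10 (1.503 FPKM in SRAKO, 1.28 FPKM in WT) and the receptor Ddr2 (1.73 FPKM in SRAKO, 2.0 FPKM in WT) followed.

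Of 19 tested TGF-beta pathway genes and transcription factors that act on collagen genes, 12 were lower and 7 higher in SRAKO with a median log2 difference of -0.03, and 0 were called or had an unadjusted p under 0.05. Smad4, the common partner of TGF-beta Smads, had 4.20, 4.89 and 5.02 FPKM in SRAKO hearts, against 5.50, 5.49 and 5.37 FPKM in WT hearts. Nfya, a subunit of the CCAAT-binding factor NF-Y, averaged 1.68 FPKM in SRAKO and 1.95 FPKM in WT. These 2 of the 19 did not overlap between genotypes, where 3.76% of all tested rows were separated in that direction. Tgfbr1 averaged 1.43 FPKM in SRAKO and 1.05 FPKM in WT, and Cebpb 12.1 FPKM in SRAKO and 10.1 FPKM in WT.

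Activated fibroblasts raise collagen output, and their markers gave a mixed picture. Of 9 tested, 6 were lower and 3 higher in SRAKO with a median log2 difference of -0.09, and 0 were called. The sum over all 12 listed ran from 239 to 250 FPKM in SRAKO hearts and from 183 to 275 FPKM in WT hearts. Most of that sum was Acta2, with 173.4, 161.5 and 160.1 FPKM in SRAKO hearts and 121.8, 185.1 and 145.4 FPKM in WT hearts. Postn, periostin, had 6.77, 6.67 and 7.08 FPKM in SRAKO hearts, against 8.44, 7.601 and 9.94 FPKM in WT hearts (limma, log2 difference -0.29, SE 0.11, unadjusted p = 0.0300). It was 1 of the 9 lower at an unadjusted p under 0.05, where 1.56% of all tested rows were. Meox1, a homeobox factor of activated cardiac fibroblasts, had 5.92, 5.46 and 4.54 FPKM in SRAKO hearts and 5.55, 6.27 and 8.13 FPKM in WT hearts. SRAKO2372 was the highest SRAKO heart for Postn and the lowest of all 6 for Meox1, and WT2379 was the highest of the 6 for both. Tagln averaged 40.8 FPKM in SRAKO and 31.9 FPKM in WT.

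Markers of other cells that could hold collagen RNA were also read, and no marker was at 0 in all 6 hearts. Smooth muscle and pericyte markers had 7 of 10 higher in SRAKO, a median of 0.07 and sums of 557 to 597 FPKM in SRAKO hearts and 457 to 574 FPKM in WT hearts. Most of each sum was Des, with 372, 413 and 395 FPKM in SRAKO hearts and 283, 389 and 395 FPKM in WT hearts. Myh11 averaged 16.2 FPKM in SRAKO and 11.98 FPKM in WT (limma, unadjusted p = 0.0142, where 1.90% of all tested rows were higher at that level). Valve interstitial markers had 4 of 4 tested higher, with a median of 0.40. Sums over all 7 listed were 47.7 to 51.0 FPKM in SRAKO hearts and 28.2 to 38.5 FPKM in WT hearts. Among these, Cytl1 averaged 36.0 FPKM in SRAKO and 24.2 FPKM in WT (unadjusted p = 0.00554), and Prg4 averaged 7.46 FPKM in SRAKO and 4.06 FPKM in WT (unadjusted p = 0.0188). Macrophage markers had 8 of 9 higher with a median of 0.16 and sums of 134 to 153 FPKM in SRAKO hearts and 110 to 133 FPKM in WT hearts. Adipocyte markers had 8 of 8 tested higher with a median of 0.69. Sums over all 9 listed were 149 to 461 FPKM in SRAKO hearts and 142 to 175 FPKM in WT hearts, SRAKO2371 being the highest. Fabp4 stands on both the adipocyte and the endothelial list.

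Atrial markers had 6 of 6 lower with a median of -0.30. Their sums were 2980 to 3511 FPKM in SRAKO hearts and 2485 to 8442 FPKM in WT hearts. Nppa made up most of each sum, with 2424, 1829 and 2436 FPKM in SRAKO hearts and 1651, 2469 and 6576 FPKM in WT hearts. WT2379 was the highest heart in 6 of 6 atrial markers, as it was in 14 of the 17 tested collagens. Kcnj3, an atrial potassium channel subunit, had 2.19, 1.73 and 3.04 FPKM in SRAKO hearts, against 3.32, 3.26 and 3.53 FPKM in WT hearts (limma, log2 difference -0.41, SE 0.14, unadjusted p = 0.0207), and the genotypes did not overlap. That was 1 of 6 for each. Over all tested rows, 1.56% were lower at an unadjusted p under 0.05 and 3.76% were separated in that direction. Endothelial markers had 7 of 10 lower (median -0.03) and cardiomyocyte markers 3 of 8 lower (median 0.02). Of the tested epicardial markers 2 of 2 were lower (median -0.20), and of the Schwann markers 1 of 2 (median -0.01). Sums over all 6 epicardial markers listed ran from 1.89 to 4.72 FPKM in SRAKO hearts and from 2.76 to 4.26 FPKM in WT hearts. The 6 Schwann markers listed summed to 4.35 to 6.20 FPKM in SRAKO hearts and 4.71 to 5.39 FPKM in WT hearts. Of the genes on these marker lists limma called 0. The part of any of these cells, or of the piece of heart taken, in the collagen values was not tested.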

How the data were processed

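Heart RNA of 3 SRAKO and 3 WT mice was measured, grouped by sample title. The authors deposited FPKM values per gene in a single table. The submitters' processing notes list trimming, alignment and assembly tools: cutadapt (1.9), the aligner HISAT2 (2.0.4), the assembler StringTie (1.3.4d), and also edgeR without a version. They name the human build hg38, while 99.6% of the table's 81263 mouse transcript identifiers and all 143 identifiers in the collagen rows are in GENCODE M21 (GRCm38), from which positions were taken. The build used for alignment is otherwise not given in the sources used here. Of the collagen rows, 13 are loci assembled by StringTie.

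FPKM are not counts, and low values moved in steps read as aligned bases (56.1% to 69.4% of 72 to 98 low rows per heart were whole within 0.05), so no count test was run. Tests used R 4.3.3 and limma 3.58.1 on log2(FPKM + 1), which understates changes of low genes. A row was kept with 1 FPKM or more in 3 or more of the 6 hearts, which left 10201 of 25901. Genotype was the only term, with a variance trend, a prior of 3.69 degrees of freedom, two-sided tests and Benjamini-Hochberg adjustment over all rows at a threshold of 0.05. Chain ratios were compared with an exact permutation test (SciPy 1.17.1). The code was tested on simulated data.

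Values in each heart are given for collagens with a mean of at least 5 FPKM, an unadjusted p under 0.05 or no overlap between genotypes. Of each other list up to 4 members were named by smallest p, in each heart or as group means. Sra1, mt-Rnr1, Dcn, Lum, Mmp14 and Col4a6, and the other markers given without being among those 4, were chosen after their values were seen. Promoters were picked after values were seen. Members and lists were chosen with earlier results of these data known. Alternatives were other pseudocounts (0.1 and 5), filters, scalings, array weights, no trend, rows summed per symbol, the hearts rich in ribosomal RNA left out or as a batch term, and each heart left out. Labels state no strand, so overlapping genes cannot be told apart.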

Additional observations from a re-analysis of the deposited data

How the results depend on the processing

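No paired analysis was possible because the hearts carry different numbers and share none between genotypes. limma called 0 of the tested collagens after adjustment under every alternative run, and 0 members of the biosynthesis list. The count of collagens with an unadjusted p under 0.05, 0 in the reported fit (353 of all 10201 rows), was 2 with median-ratio rescaling (Col5a2 and Col6a3; 488 of all rows), 1 with quantile normalization (Col5a2; 491), 3 with array weights (Col5a2, Col6a3 and Col15a1; 675), 2 without both WT2368 and SRAKO2371 (Col5a1 and Col6a1; 672) and 2 with no filter on low values (Col2a1 and Col22a1; 919 of 25901). It ran from 0 to 3 with each heart left out in turn, where all rows gave 206 to 683. The number of collagens below 0 was 29 of 43 with no filter and 9 of 9 with a filter at an FPKM of 5, and it ran from 13 to 16 of 17 with each heart left out, 13 being without SRAKO2372. Their median log2 difference lay between -0.28 and -0.05 over the same omissions, and it was -0.03 with no filter, -0.12 with a pseudocount of 5, -0.28 with array weights and -0.32 without both WT2368 and SRAKO2371. Of 281 values of single collagens under 17 alternatives, 274 kept their direction and 7 reversed. Col5a3 turned to 0.0366 without both WT2368 and SRAKO2371. With each heart left out in turn, the log2 difference ran from -0.3434 to 0.1228 for Col1a1 and from -0.1735 to 0.0620 for Col1a2, both highest without SRAKO2372. It ran from -0.0852 to 0.0332 for Col5a3 (highest without SRAKO2371), from -0.1190 to 0.0966 for Col14a1 and from -0.1396 to 0.0364 for Col16a1 (both highest without WT2379). The log2 ratios nearest to equal between genotypes also changed sign, from -0.2061 to 0.0608 for Col1a1/Col1a2, from -0.1096 to 0.0724 for Col4a1/Col4a2 and from -0.0233 to 0.0344 for Col6a1/Col6a2. The cause was not tested. Depth in reads is unknown, which limits what can be said of collagens near 0.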

Other observations

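Several collagen genes lie side by side in the mouse genome (GRCm38), and neighbours in the collagen IV family share their start regions. Col4a1 and Col4a2 on chromosome 8 run in opposite directions and overlap by 22 bases at their starts (Col4a1 11198423 to 11312826 on the minus strand, Col4a2 11312805 to 11449287 on the plus strand). Col4a4 and Col4a3 on chromosome 1 start 71 bases apart, and Col4a6 and Col4a5 on chromosome X start 1308 bases apart. Levels within these pairs were alike for Col4a1 and Col4a2 (means over 6 hearts of 38.0 and 38.9 FPKM) and less so for Col4a3 and Col4a4 (0.323 and 0.702 FPKM). They were furthest apart for Col4a5 and Col4a6 (3.13 and 0.614 FPKM). Col4a6 had 0.635, 0.762 and 0.673 FPKM in SRAKO hearts, against 0.306, 0.642 and 0.663 FPKM in WT hearts, so WT2368 stood below the other 5 hearts. With no strand stated, reads in the shared bases of Col4a1 and Col4a2 cannot be assigned to either gene.

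Col6a2 and Col6a1 lie on chromosome 10 on the same strand, 85161 bases apart, and their ratio varied least of the 6 computed. Col6a6, Col6a5 and Col6a4 follow each other on chromosome 9 with gaps of 27917 and 28810 bases. Of these 3, Col6a6 averaged 0.622 FPKM in SRAKO hearts and 0.603 FPKM in WT hearts, and the other two were near 0.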
